A study of Homo sapiens with 8 samples.

Results

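Regions of chromatin bound by the transcription factor GATA2 at the ends of protein-coding genes were described in VCaP, an established castrate-resistant human prostate cancer cell line. The regions came from the peak lists of 4 chromatin immunoprecipitation and sequencing (ChIP-seq) libraries. Peaks that shared at least 1 bp, over all lists, were joined into 36122 regions. A region counted as a gene-end region when its midpoint lay within 1 kb of the start or end of a RefSeq protein-coding gene span (GRCh38, the build the submitters name hg38), which held for 792 regions, or 2.19% of all. Of these, 328 lay at a transcription start and 339 at a gene 3′ end, 15 of them at both, and 140 lay at the end of a gene whose strand was not given. Close to the 1 kb limit, 64 regions had their midpoint 900 to 1000 bp from a gene end and 87 had it 1000 to 1100 bp away.

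The JQ1 group was 2 GATA2 precipitates of cells given 1 µM JQ1, an inhibitor of the BET family of bromodomain proteins, for the last 24 h before harvest. Its control group was 2 GATA2 precipitates of cells that the titles call non-treated and the growth protocol describes as given DMSO, and they are called untreated here. All cells had spent 72 h without steroids before harvest, so both groups lack added androgen. Each group also has 2 input samples, which have no peak list here. VCaP is a single cell line, and the labels do not say whether the replicates came from separate cultures, so a p-value over lists measures only the spread between these samples.

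GATA2 is a zinc-finger protein that binds short sites with the letters GATA and works in prostate cells beside FOXA1. Most of its sites are known to be distal enhancers. A promoter lies just before a transcription start, and many human promoters are rich in CG dinucleotides (CpG), while promoters of tissue-restricted genes are more often poor in them. A 3′ end is where a transcript is cut and polyadenylated.

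The promoter letters under GATA2 summits show where the GATA core lies relative to binding. The 10 sequences come from RefSeq promoter windows (GRCh38.p14), run 5′ to 3′ on the gene's strand and reach 50 bases either side of a summit or stop at the base before the start site. GATA and its reverse complement TATC are in capitals. The first 5 are all the regions present in all 4 lists whose summit could be centred in a window. The others are examples from regions present in 2 lists. Over all 42 stretches that could be cut, 11 had a core within 10 bp of the summit and 11 had none.
HSD3B1, chr1:119507099-119507199, plus strand: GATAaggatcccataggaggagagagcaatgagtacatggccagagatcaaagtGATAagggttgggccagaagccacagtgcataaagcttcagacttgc
ADD3, chr10:109996234-109996334, plus strand: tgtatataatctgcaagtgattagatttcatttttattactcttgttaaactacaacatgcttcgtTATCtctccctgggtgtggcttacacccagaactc
DDX41, chr5:177517030-177517130, minus strand: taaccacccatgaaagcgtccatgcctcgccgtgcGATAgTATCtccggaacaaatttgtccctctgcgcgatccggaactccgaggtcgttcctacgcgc
GPR137, chr11:64270335-64270435, plus strand: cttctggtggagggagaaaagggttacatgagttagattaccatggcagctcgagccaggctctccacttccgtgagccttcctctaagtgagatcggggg
TMPRSS11F, chr4:68129870-68129970, minus strand: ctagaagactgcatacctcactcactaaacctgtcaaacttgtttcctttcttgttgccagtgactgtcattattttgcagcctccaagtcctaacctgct
UGT2B15, chr4:68670709-68670809, minus strand: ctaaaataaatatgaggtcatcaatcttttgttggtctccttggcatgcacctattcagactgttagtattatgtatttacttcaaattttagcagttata
RDH16, chr12:56957682-56957782, minus strand: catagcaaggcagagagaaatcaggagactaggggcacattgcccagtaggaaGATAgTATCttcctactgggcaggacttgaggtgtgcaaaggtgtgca
TNFRSF19, chr13:23570344-23570411, plus strand: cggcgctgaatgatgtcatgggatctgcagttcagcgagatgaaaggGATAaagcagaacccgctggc
SMARCA5, chr4:143513471-143513571, plus strand: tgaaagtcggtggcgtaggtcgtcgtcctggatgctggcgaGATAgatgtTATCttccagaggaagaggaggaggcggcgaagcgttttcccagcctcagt
SPINT3, chr20:45515747-45515847, minus strand: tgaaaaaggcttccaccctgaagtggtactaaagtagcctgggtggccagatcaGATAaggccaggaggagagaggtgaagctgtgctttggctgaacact

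HSD3B1 codes for a hydroxysteroid dehydrogenase of androgen synthesis. Its summit lay 54 bp before the start site and 5.50 bp from the centre of the nearest GATA core. The authors' fold enrichment there was 8.08 and 16.0 in the JQ1 lists, against 11.8 and 11.7 in the untreated lists. The JQ1 values lay on both sides of the untreated ones, so the groups overlapped. ADD3, the gene of a membrane skeleton adducin, had a core 17.5 bp from its summit, and DDX41, an RNA helicase gene, had the nearer of 2 neighbouring cores at 8.50 bp. DDX41 has 32 CpG in its 300-base window against 2 for ADD3, so cores stood under summits in a CpG-rich and in a CpG-poor promoter. GPR137, which codes for a membrane receptor-like protein, and TMPRSS11F, a serine protease gene, had no GATA core in the printed stretch although both regions were present in all 4 lists. UGT2B15, whose enzyme inactivates androgens by glucuronidation, had none either. Its region was in both replicate 2 lists only, with a fold of 5.46 in JQ1 and 5.41 in untreated cells. RDH16, a retinol dehydrogenase gene, TNFRSF19, a TNF receptor family gene, SMARCA5, a chromatin remodelling ATPase gene, and SPINT3, a protease inhibitor gene, each had a core within 5.50 bp of the summit.

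GATA2 regions were slightly less dense at gene ends than over the genome. The windows of 1 kb around all gene ends make up 2.47% of the genome between the outermost regions of each chromosome, a length that includes sequence where no peak can be called, and they held 2.19% of the regions. Start windows held 11.1 regions per Mb and 3′ end windows 11.2, against 12.3 over the same genome length. Sequence where no peak can be called lowers this last value. The difference in density was not tested. The percent of a list's regions at a start minus the percent at a 3′ end was 0.12 and −0.10 in the JQ1 lists and 0.57 and −0.06 in the untreated lists. This mean of 0.13 ± 0.31 percentage points (SD, n = 4 lists) was above 0 in 2 lists and below 0 in the other 2 (two-sided exact sign-flip permutation test over lists, p = 0.625, smallest possible p 0.13).

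Just downstream of transcription starts GATA2 regions were sparse. The first 500 bp after a start held 50 regions and the 500 bp before it held 110. The other 18 bins of 500 bp within 5 kb held 71 to 113, with a median of 97.0. In these bins a region near several ends was counted once per end. Around 3′ ends the bins beside the end held 106 regions before it and 90 after it, against 64 to 89 in the other bins. Within 1 kb of starts, 36.2% and 38.5% of region-start pairs lay downstream in the JQ1 lists, against 38.0% and 38.7% in the untreated lists. All 4 lists were under 50%, with a mean difference from 50% of −12.14 ± 1.16 points (SD, n = 4 lists, exact sign-flip permutation p = 0.13, the smallest it can give). At 3′ ends the share downstream was 57.1% and 47.8% with JQ1 and 58.5% and 46.8% untreated, with no common side (exact sign-flip permutation p = 0.50). The share downstream was lower at starts than at 3′ ends in 4 of 4 lists, with a difference of −14.70 ± 6.96 points (SD, n = 4 lists, exact sign-flip permutation p = 0.13). These position tests were chosen after the profile had been seen. A merged region has the same midpoint in every list that holds it. Lists that share regions therefore repeat each other's positions, and their agreement and spread are not those of independent samples.

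**Figure D1:**
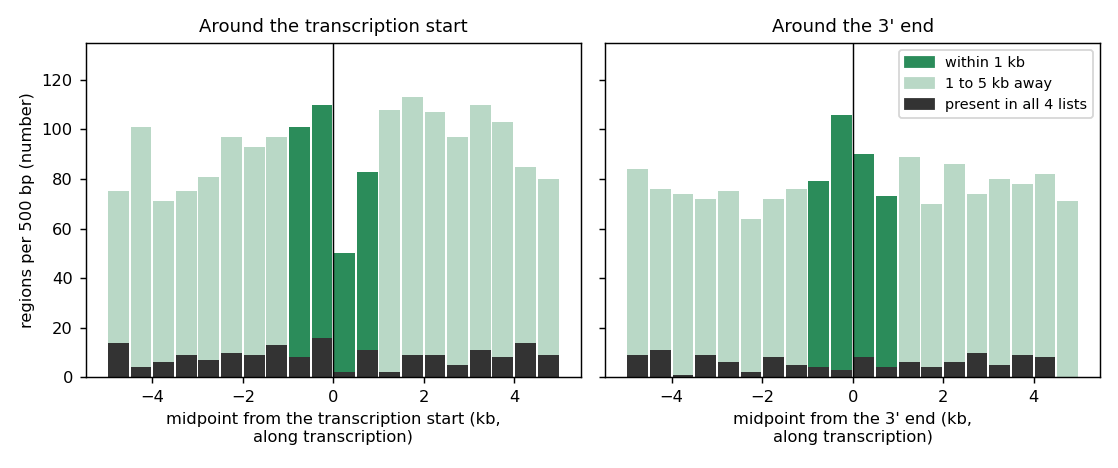
Number of GATA2 regions (y axis) per 500 bp bin of distance along transcription (x axis, kb) around starts and 3′ ends. Only the 15842 genes with a strand are used, and a region near several ends is counted once per end. Dark green bins lie within 1 kb of the end, light green bins lie beyond 1 kb, and black marks regions present in all 4 lists. The bin just after the start holds 50 regions, the fewest of its panel.

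Among regions at transcription starts and present in all 4 lists, the best ranked lay 773 bp downstream of the start of CSRNP3, which codes for a nuclear protein (chr2:165470178-165470764). Its fold enrichment was 11.4 and 28.0 in the JQ1 lists, against 10.9 and 44.0 in the untreated lists. The groups overlapped. In a region 691 bp before the start of PRSS23, a secreted serine protease gene (chr11:86790133-86790627), the fold was 8.10 and 34.5 with JQ1, against 11.5 and 26.3 untreated. NR2F2, which codes for an orphan nuclear receptor, had a region 150 bp after its start (chr15:96326044-96326349) with folds of 9.91 and 21.6 in JQ1 lists and of 8.54 and 9.32 in untreated lists. Here both JQ1 values were above both untreated values, as they also were at TMPRSS11F, with 8.58 and 14.8 against 5.48 and 7.83. No test was run on these values, which the authors' peak caller set in each list on its own. CYP3A43, a cytochrome P450 gene, ZG16B, a secreted lectin-like gene, LOC124902806 and MBNL1, a splicing regulator gene, completed the 8 best start regions. Across these 4 the folds ran from 5.14 to 30.0 in JQ1 lists and from 7.79 to 26.2 in untreated lists.

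At 3′ ends the strongest common region lay 217 bp beyond DSC3, which codes for a desmosomal cadherin and is a basal epithelial marker (chr18:30988926-30989370). The fold was 15.1 and 42.4 with JQ1, against 10.9 and 49.8 untreated, and its −log10 q was 46.2 and 219 with JQ1, against 31.2 and 185 untreated. It stood within the top 9.07% of peaks by p-value in untreated replicate 1 and higher in each other list. MRTFB, a coactivator of serum response factor, had folds of 14.5 and 18.8 with JQ1 and of 14.5 and 39.1 untreated, so the replicate 1 lists had the same rounded fold and the replicate 2 lists were not. The region shared by the 3′ ends of PLCB3, a phospholipase C gene, and BAD, a cell death gene, had 6.66 and 22.3 in JQ1 lists and 6.08 and 10.4 in untreated lists. LCE1F, a cornified envelope gene, and MELK, a mitotic kinase gene, followed. The folds at these last 2 ran from 7.31 to 18.7 with JQ1 and from 8.20 to 34.2 untreated. Of these 13 start and 3′ end regions, the JQ1 value was the higher one in both replicates at 6 (NR2F2, TMPRSS11F, CYP3A43, ZG16B, PLCB3 with BAD, and LCE1F) and the lower one in both at 2 (MBNL1 and MELK). Over all 3236 regions present in all 4 lists, JQ1 was higher in both replicates at 16.7% and lower in both at 37.5%. The groups did not overlap at 2 of the 13, NR2F2 and TMPRSS11F, against 6.33% of those regions. The 13 were picked by rank, so these counts are a description of them only.

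**Figure D2:**
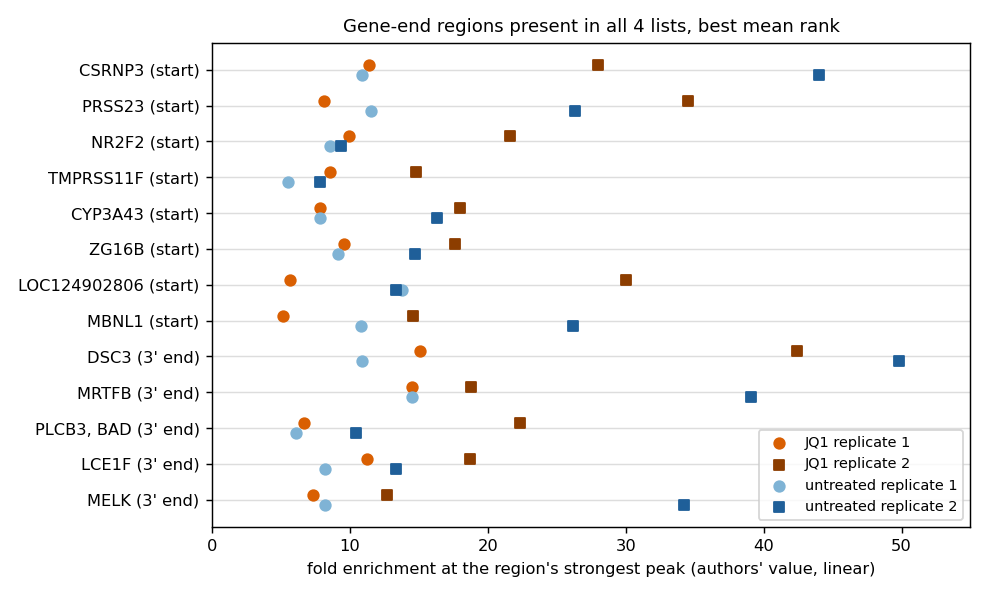
Fold enrichment (x axis, the authors' linear value) of the 8 best-ranked start regions and the 5 best-ranked 3′ end regions present in all 4 lists, named by gene (y axis), without regions of no given strand, with JQ1 lists in orange and brown and untreated lists in blue; circles are replicate 1 and squares replicate 2. DSC3 has the highest values, 42.4 in JQ1 replicate 2 and 49.8 in untreated replicate 2.

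Summit positions were close in the 4 lists. Over the 61 gene-end regions present in all lists the 4 summits spanned a median of 24.0 bp and at most 347 bp, and in 53 of them (86.9%) they lay within 50 bp of each other. Other regions present in all lists gave a median of 24.0 bp and 85.8%. Regions were joined from overlapping peaks, which limits how far apart their summits can lie.

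No difference in the number of gene-end peaks was detectable between JQ1 and untreated lists over the replicate spread. The JQ1 lists held 104 and 678 gene-end peaks, against 169 and 559 in the untreated lists. The means were 391 ± 406 with JQ1 and 364 ± 276 untreated (SD, n = 2 each). The mean log2 number of the JQ1 lists minus that of the untreated lists was −0.21, although the mean number itself was higher with JQ1 (two-sided exact permutation test over lists, p = 1.00, smallest possible p 0.33), with −0.70 in replicate 1 and 0.28 in replicate 2. Start regions numbered 46 and 259 with JQ1, against 88 and 224 untreated, and 3′ end regions 40 and 290 with JQ1, against 50 and 241 untreated. JQ1 over untreated was −0.94 in log2 for start regions in replicate 1 and 0.21 in replicate 2, and −0.32 and 0.27 for 3′ end regions. The replicates went in opposite directions for both kinds of end.

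As a share of each list, gene-end regions were 2.14% and 2.12% with JQ1, against 2.47% and 2.09% untreated. The means of 2.13% ± 0.0137 with JQ1 and 2.28% ± 0.274 untreated (SD, n = 2 each) differed by −0.15 percentage points (exact permutation p = 1.00). Start regions alone made up 0.898% ± 0.0790 of JQ1 and 1.08% ± 0.323 of untreated regions, a difference of −0.19 (exact permutation p = 0.667). For 3′ end regions the shares were 0.886% ± 0.0802 with JQ1 and 0.832% ± 0.123 untreated, a difference of 0.05 (exact permutation p = 0.667). Untreated replicate 1 stood apart from the other lists with 88 start against 50 3′ end regions. Without it, the difference in gene-end share was 0.04 instead of −0.15.

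**Figure D3:**
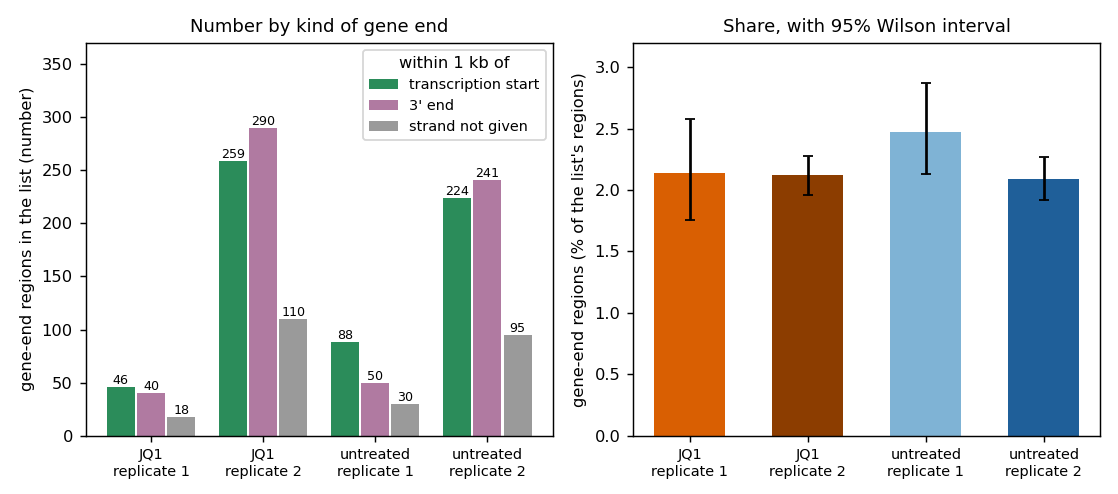
Left, number of gene-end regions per list (y axis) at starts (green), 3′ ends (purple) and ends of genes with no strand given (grey). Right, gene-end regions as a percent of each list's regions with 95% Wilson intervals, which cover counting error only. JQ1 lists stand left of untreated lists, and the highest share is 2.47% in untreated replicate 1.

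Each list held gene-end regions that no other list had, with 4 in JQ1 replicate 1, 210 in JQ1 replicate 2 and 112 in untreated replicate 2. In untreated replicate 1 there were 18, or 2.27% of gene-end regions. Regions found in this list alone made up 0.597% of all other regions. For JQ1 replicate 1 these shares were 0.505% and 0.195%. They were 26.5% and 25.9% for JQ1 replicate 2, and 14.1% and 13.2% for untreated replicate 2. Of the 18, 13 were at a start, 1 at a 3′ end and 4 at the end of a gene with no strand given. They included the shared promoter of HSP90AA1, a heat shock chaperone gene, and WDR20, with a fold of 6.66, and the early response gene BTG2, with 4.79. They ranked low, with the best at the top 51.1% of the list by p-value and the median at 88.2%. The 16 promoters of the start regions had a median of 25.5 CpG per 300 bases. A GATA core was in 7 of them (43.8%, Wilson interval 23.1 to 66.8), close to the 43.4% of all promoters. The interval also held the 60.2% of all promoters with a region within 1 kb of the start, so 16 promoters are too few to tell these shares apart. HSP90AA1 and WDR20 were picked for mention after the values had been seen.

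Most gene-end regions found in both untreated lists were found with JQ1 as well. Regions that both replicates of a treatment share are called recurrent. Among 136 untreated recurrent gene-end regions, 130 also appeared with JQ1 in 1 or both replicates (95.6%, 95% Wilson interval 90.7 to 98.0), against 96.5% over all regions. In both JQ1 replicates there were 61 (44.9%, 36.8 to 53.2), against 50.8% in both over all regions. Of 98 JQ1 recurrent gene-end regions, 61 (62.2%, 52.4 to 71.2) were in both untreated lists, against 68.6% over all regions. The 61 regions in all 4 lists were 7.70% (6.04 to 9.77) of gene-end regions, against 8.96% over all regions. Each of these 4 shares of all regions lay inside the interval of the gene-end share.

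A larger share of start than of 3′ end regions was common to the lists. Of start regions 37 of 328 (11.3%, 8.30 to 15.2) were in all 4 lists, and of 3′ end regions 17 of 339 (5.01%, 3.15 to 7.88). Of JQ1 recurrent regions, 37 of 43 at starts (86.0%, 72.7 to 93.4) and 17 of 39 at 3′ ends (43.6%, 29.3 to 59.0) were in both untreated lists. Of the JQ1 recurrent 3′ end regions, 21 were missing from untreated replicate 1 only. Intervals cover counting error only, the regions are not replicates, and the difference was not tested over lists.

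Of gene-end regions, 1 (0.126%) was recurrent with JQ1 and absent from untreated lists, against 0.377% of all regions. It lay 165 bp beyond the 3′ end of FRMPD1, which codes for a scaffold protein (chr9:37746944-37747195), with folds of 6.11 and 7.16. The converse group, recurrent in untreated cells and absent from JQ1 lists, had 6 gene-end regions (0.758%), against 0.620% of all regions. The leading one was at an end of DBNDD2, with folds of 7.34 and 8.29, and SPINT3 and ADCK1, which codes for a mitochondrial protein, followed with 6.67 and 7.55 and with 5.41 and 6.97. The SPINT3 sequence printed above carries a core 5.50 bp from the summit. The others were near IRF5, H3-3B and PABPC1, which were named after their values were seen. The rank percentile by p-value was 68.7 and 44.0 for FRMPD1 with JQ1, and 39.9 and 35.7 for DBNDD2 untreated.

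Gene-end regions ranked lower than other regions in every list. Ranked by p-value, their median percentile was 53.9 and 53.5 with JQ1 and 59.0 and 52.2 untreated, where a low percentile is a strong peak. Other regions had medians of 49.1 and 49.1 with JQ1 and of 48.7 and 49.1 untreated. The gap of 5.66 ± 3.2 rank points (SD, n = 4 lists) had the same sign in 4 of 4 lists (exact sign-flip permutation p = 0.13, the smallest it can give). The lists share many regions, so their agreement is not that of independent samples. In fold enrichment, medians of gene-end and other regions were 5.67 and 6.02 in JQ1 replicate 1, 6.63 and 6.65 in JQ1 replicate 2, 5.59 and 6.21 in untreated replicate 1 and 7.42 and 7.56 in untreated replicate 2. Gene-end regions with a fold of 10 or more numbered 10 and 160 with JQ1 (9.71% and 24.6% of gene-end regions), against 15 and 156 untreated (9.04% and 28.5%). Among other regions the JQ1 shares were about 10% and 26%, and the untreated shares 14.1% and 33%. They were also slightly narrower, with a median width of 228 bp against 240 bp.

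Promoters with GATA2 carried GATA letters more often than promoters at large. Of 15842 genes with a strand, 332 (2.10%) had a region within 1 kb of the start. In their RefSeq windows, from 250 bases before to 50 after the start, the 4 letters GATA on either strand were found in 200 (60.2%, 54.9 to 65.4), against 43.4% of all promoters. The longer form AGATAA, which holds the first motif within it, was in 52 (15.7%, with a lower bound of 12.1), against 7.66% of all promoters. Where the summit itself lay inside the window, 64 of 69 windows held GATA (92.8%, 84.1 to 96.9) and 26 held AGATAA (37.7%, 27.2 to 49.5). Per list, GATA was in 70.2% and 61.2% of windows with JQ1, against 60.0% and 61.3% untreated, so JQ1 and untreated lists did not stand apart. Genes are not replicates, and these shares are descriptions without a test.

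The share of promoter windows with GATA was highest for regions close to the start. Only the promoter window was searched, so the sequence under regions farther from the start was mostly not read. Their shares describe the promoter and not the bound site. With the midpoint in the last 250 bp before the start, 58 of 66 windows held GATA (87.9%, 77.9 to 93.7), and in the first 250 bp after it 21 of 23 did (91.3%, 73.2 to 97.6). With the midpoint 501 to 1000 bp before the start, 44 of 100 did (44.0%, 34.7 to 53.8), close to the 43.4% of all promoters. At 250 to under 500 bp and at 500 to 1000 bp after the start the shares were 51.9% and 55.4%. The near windows were also poorer in CpG, with medians of 11 before and 3 after the start, against 23 for the windows of regions 501 to 1000 bp before it. The part of CpG content in these shares was not tested by distance. In the 42 windows where a stretch of 50 bases either side of the summit could be cut, 31 stretches held GATA (73.8%, 58.9 to 84.7), against 19% for the same stretches of all promoters. For AGATAA the values were 21.4% (11.7 to 35.9) and 2.62%. The nearest core lay a median of 15.5 bp from the summit, and 24 of the 31 were within 25 bp. The length of the stretch bounds this distance, and no distance over the stretches of all promoters was set beside it. The other 11 stretches, with GPR137, TMPRSS11F and UGT2B15 among them, held none of these letters.

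**Figure D4:**
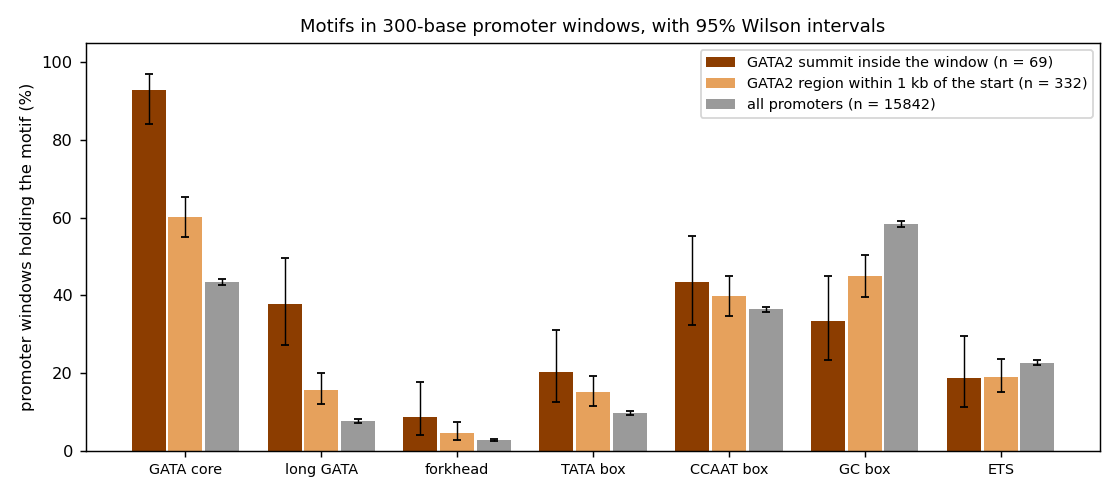
Percent of 300-base promoter windows (y axis) that hold each motif (x axis), with 95% Wilson intervals, for windows with the GATA2 summit inside (dark brown), windows of genes with a GATA2 region within 1 kb of the start (light brown) and all promoters (grey). The GATA core is in 92.8%, 60.2% and 43.4% of the 3 sets.

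Of the other letters, some were more and some less frequent in bound windows. The forkhead letters TGTTTAC were in 8.70% (4.05 to 17.7) of windows with a summit inside, 4.52% (2.76 to 7.32) of all bound windows and 2.67% of all promoters. TATAAA, the TATA box, was in 20.3%, 15.1% and 9.75%, while GGGCGG, the GC box, was in 33.3%, 44.9% and 58.3%. The CCAAT box was in 39.8% of bound windows, against 36.4% of all promoters. The ETS letters CCGGAA were in 19% of bound windows, against 22.7% of all promoters. The AP-1 letters TGACTCA were in 8.70% (4.05 to 17.7) of windows with a summit inside, 4.82% of bound windows and 3.62% of all promoters, and the shares in bound windows and all promoters were 13.9% and 17.5% for the E-box CAGCTG. The median share of G and C bases was 53.0% in windows with a summit inside, 56.0% in bound windows and 62.7% over all promoters. The part of base content in the shares of these letters was not tested. These letters were searched on both strands, and a match is a description of the letters only.

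GATA2 was found more often at promoters poor in CpG. With 0 to 4 CpG per window, 98 of 2623 promoters had a region (3.74%, 3.08 to 4.53), and with 30 or more, 66 of 4732 had one (1.39%, 1.10 to 1.77). The classes between ran from 1.72% to 2.26%. Bound windows had a median of 17.5 CpG and those with a summit inside 10, against 22 over all promoters. Among windows with 20 or more CpG the core was in 21 of 23 with a summit inside (91.3%), in 60 of 149 bound windows (40.3%) and in 28.4% of all 8811 promoters of that class. Among windows with 0 to 4 CpG it was in 24 of 26 (92.3%), 80.6% and 74.5% of the same sets.

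**Figure D5:**
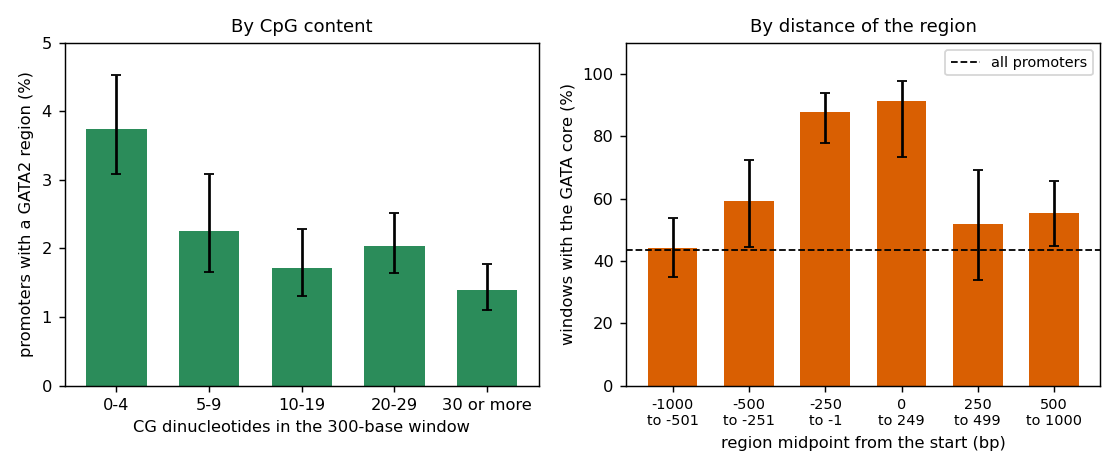
Left, percent of promoters with a GATA2 region within 1 kb (y axis) by the number of CG dinucleotides in the window (x axis). Right, percent of windows with the GATA core (y axis) by the distance of the region's midpoint from the start in bp (x axis), with the 43.4% of all promoters dashed. Bars carry 95% Wilson intervals; the left bars run from 3.74% to 1.39%.

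Each named gene group held between 1 and 4 genes with a gene-end region. Over all 20037 protein-coding genes, 780 (3.89%) had a gene-end region, and over the 456 distinct genes of 18 lists 31 (6.80%) had one. Each list held 16 to 30 genes. The lists were drawn up with earlier results of these data known and are descriptions. Of 30 androgen-regulated genes, 4 had one (13.3%), and in each it was in replicate 2 lists only. At TRPM8, an ion channel gene, the fold was 9.13 with JQ1 and 5.40 untreated. HPGD, which codes for a prostaglandin dehydrogenase, had 5.94 with JQ1 and 4.16 untreated, and C1orf116 had 5.36 and 4.36 in the same order. The promoter region of KLK2, a kallikrein gene, was in untreated replicate 2 only, with a fold of 5.64, and was named after its values were seen. Among prostate and epithelial transcription factor genes, the ETS factor gene EHF had a pair of regions in JQ1 replicate 2 only, 108 bp and 534 bp after its start, with folds of 3.82 and 3.86, while FOXA1, HOXB13, ERG and GATA2 itself had none.

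Steroid synthesis and metabolism genes had 3 of 28 (10.7%), all at starts. These were HSD3B1, UGT2B15 and SRD5A3, a steroid reductase family gene whose region was in untreated replicate 2 only, with a fold of 4.82. HSD3B1 was the only gene of this list with a recurrent gene-end region in either group. Among markers of other cell types, 4 of 26 hepatocyte genes had a region (15.4%), with G6PC1, a glucose phosphatase gene, at 11.7 with JQ1 and 8.97 untreated in replicate 2. TTR and ALB, which code for blood plasma proteins, and CYP7A1, the bile acid synthesis enzyme gene, were the others, in 1 or 2 lists, with CYP7A1 named after its values were seen. MS4A2, which codes for a chain of the mast cell IgE receptor, was the single hit of 28 blood and endothelial genes. Its 3′ end region was in all 4 lists, with folds of 4.73 and 14.7 with JQ1, against 4.88 and 20.9 untreated.

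Luminal markers had 2 of 27, ANXA3 and ACP3, the gene of prostatic acid phosphatase, whose region 233 bp after the start had folds of 4.45 with JQ1 and 4.62 untreated in replicate 2. Basal markers had 1 of 24 (DSC3), neuroendocrine markers 1 of 24 (SCG3) and stromal and immune genes 1 of 26 (LUM). Genes often raised by BET inhibitors had 1 of 16, CLU, the clusterin gene, with a fold of 9.81 in JQ1 replicate 2 alone of the JQ1 lists, against 9.22 and 12.4 untreated. Genes often lowered by them had 2 of 22, TNFRSF19 and TERT, the telomerase gene. The TERT region lay 850 bp beyond the 3′ end and was in untreated replicate 2 only, at rank percentile 86.5. BET, Mediator and elongation genes had 1 of 28 (NCOA2). For housekeeping genes the count was 2 of 28 (HPRT1 and TFRC), and for ribosomal protein genes 1 of 30. That gene, RPL14, had a 3′ end region with a fold of 19.7 in the second JQ1 list and no peak in the first, against 6.92 and 15.2 untreated. Histone genes had 2 of 30 (H2BC8 and H4C3), cell cycle genes 1 of 28 (TOP2A), unfolded protein response genes 1 of 24 (ATF4) and early response genes 1 of 30 (BTG2). The regions of NCOA2, TFRC, H2BC8, H4C3 and BTG2 were also in 1 peak list each. That of SCG3 ranked at percentile 81.7 in JQ1 replicate 2 and 98.8 in untreated replicate 2. Differences between lists in these shares were not tested.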

How the data were processed

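The submitters' processing notes name hg38 and the tools Bowtie2, MACS2 and Picard, with each version not given in the sources used here. The deposited lists hold 1 list per precipitate, so the authors called peaks per sample. Each deposited line has an interval, a summit, a whole-number score, a fold enrichment (a linear ratio), and 2 significance columns of the authors' caller, −log10 p-value and −log10 q-value. Fold and −log10 values are the authors' and were used to describe and rank peaks within a list, and the deposited score was not used. Read depth is not in the lists, and the series text states 30000000 reads per sample. Autosomal, X and Y peaks were kept, which left out 10 lines of JQ1 replicate 1 and 8 of untreated replicate 2.

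Gene spans came from RefSeq (GRCh38.p14, 20037 protein-coding genes). Strand came from a RefSeq promoter table whose start site lay inside the gene span, for 15842 genes, and 4195 had none, among them all 715 genes of chromosome 8, so results on starts, 3′ ends and promoters leave that chromosome out. The window nearest the span's 5′ end stood for each gene. A region's value in a list is that of its peak with the lowest p-value, and the summit set against the letters is that of the list where the region ranked best. Shares have 95% Wilson intervals. Tests were exact permutation tests over lists, and the functions were tested on simulated data. Named genes are those of the best-ranked regions common to all 4 lists (8 at starts, 5 at 3′ ends), of at most 3 regions separated in each direction, and of at most 3 members per list, while other list members appear in the list counts. The regions and gene lists were chosen with earlier results of these data known. Python 3.11.15, pandas 2.3.3, NumPy 2.4.6 and SciPy 1.17.1 were used. Alternatives were windows of 500 bp and 3 kb, a −log10 q of 5 or more, a reciprocal overlap of 50%, lists of equal length, and lists left out. Results for 1 gene are not reported here.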

Additional observations from a re-analysis of the deposited data

Results flagged for a closer look

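Outside the chromosomes compared, JQ1 replicate 1 had 10 peak lines on mitochondrial DNA, while the other 3 lists had 0. No group has 4 samples, so no list was tested as an outlier of its group.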

How the results depend on the processing

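The lower rank of gene-end regions kept its sign in all 7 alternatives, while the gap of 5.66 ran from 2.64 (window of 3 kb) to 7.37 (without replicate 2) and was 3.76 without replicate 1. Gene-end regions numbered 430 within 500 bp of an end, 2226 within 3 kb and 172 with lists of equal length, and 207 to 767 when replicate 1 or 2 was left out. Those in all lists numbered 33, 176 and 36 in the same order and 65 to 427 with a replicate left out, when 2 lists remain. With lists of equal length the log2 ratio of gene-end peaks was 0.05 and the difference in share 0.07, both turned round from −0.21 and −0.15. Leaving out 1 replicate or 1 list, the ratio ran from −1.57 (without JQ1 replicate 2) to 1.14 (without JQ1 replicate 1) and the difference from −0.36 (without untreated replicate 2) to 0.04 (without untreated replicate 1). Start minus 3′ end ran from −0.09 without replicate 1 to 0.30 without replicate 2, and was 0.01 with 500 bp and 0.50 with 3 kb, where all 4 lists had the same sign (exact sign-flip permutation p = 0.13, the smallest it can give). The share of untreated recurrent regions in both JQ1 lists was 65.5% with lists of equal length and 39.2% to 78.3% with a replicate left out. AGATAA was in 22.9% of windows for regions within 500 bp, 10% within 3 kb and 37.7% with the summit inside, and GATA in 60.2%. In these cases the cause was not tested. A replicate block (paired within replicate number) gave −0.21 (exact p = 1.000) and −0.15 (exact p = 1.000), and changed no call; with 2 pairs the labels do not show that the numbers pair samples. The short replicate 1 lists limit every share that asks for presence in all lists.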

Other observations

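Cytochrome P450 genes were among those with GATA2 at an end, a group picked after the values were seen and not tested. Of 56 genes whose symbol starts with CYP, 7 had a gene-end region (12.5%), against 3.89% of all protein-coding genes. CYP3A43 had one in all 4 lists before its start and another, 256 bp after the start, with folds of 5.36 in JQ1 replicate 2 and 11.6 in untreated replicate 2. CYP4F8, which codes for a fatty acid hydroxylase, had one in all 4 lists as well, with folds of 9.55 and 14 with JQ1, against 9.02 and 6.55 untreated. The other 5, CYP2C8, CYP2J2, CYP4B1, CYP4F11 and CYP7A1, had regions in 1 or 2 lists. Olfactory receptor genes had one at 7 of 392 (1.79%), ZNF genes at 11 of 517 (2.13%) and SLC genes at 16 of 386 (4.15%).

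The share of regions at gene ends differed between chromosomes. It was highest on chromosome 19, where 20 of 303 regions lay at a gene end (6.60%), and on chromosome 17, with 34 of 801 (4.24%). Chromosome 2 had the lowest share, with 45 of 3155 (1.43%). Chromosome 19 holds 1451 of the protein-coding genes and chromosome 2 holds 1254. Chromosome 19 thus had fewer gene-end regions on more genes, and its share was taken over fewer regions of any kind. The part of each chromosome that lies within 1 kb of a gene end was not set beside these shares. They therefore do not show denser binding at the gene ends of any chromosome. The difference in share was not tested.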
